A study of Mus musculus with 18 samples.

Results

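Angiogenic factors are secreted proteins that drive, stabilise or restrain the growth of blood vessels. Of the 48023 genes in the count table, 10 were taken by symbol through their Ensembl identifiers: the vascular endothelial growth factor (VEGF) family ligands Vegfa, Vegfb, Vegfc and Pgf, the angiopoietins Angpt1 and Angpt2, the angiopoietin-like proteins Angptl2 and Angptl4, and the thrombospondins Thbs1 and Thbs2. Each symbol matched 1 row, and all 10 passed the filter on low counts. The cells were a line of immortalized murine brown preadipocytes, made by introducing the SV40 T antigen into cells of the stromal vascular fraction of brown fat, and they were not induced to differentiate. They were treated with vehicle (Veh) or recombinant FGF6, a paracrine fibroblast growth factor, for 4, 8 or 24 h, so that the 6 groups were Veh.4h, FGF6.4h, Veh.8h, FGF6.8h, Veh.24h and FGF6.24h, each with 3 RNA-seq libraries. All 18 libraries thus came from a single line, the labels name no clone or dose, and nothing says that the 3 libraries of a group came from separate cultures, so p-values measure the spread between libraries, which may be technical.

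Brown fat is among the most densely vascularised tissues, and fat precursors and adipocytes secrete factors that act on the endothelium. VEGF ligands bind the receptor tyrosine kinases Flt1, Kdr and Flt4 on endothelial cells, with neuropilins as co-receptors. Angpt1 activates the endothelial receptor Tek and stabilises vessels, Angpt2 can oppose it at the same receptor, and thrombospondins restrain vessel growth through Cd36 and Cd47.

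The libraries held between 24327816 and 33471980 counts, and 15071 genes were tested together. Levels are given as CPM, the counts scaled to the TMM-adjusted library size, and levels of different genes are compared only as CPM per kb of exon. A gene was called changed at an adjusted p under 0.05 in edgeR's quasi-likelihood test. Of the 10 preadipocyte markers examined, 9 passed the filter, and Dlk1 had 0 counts in all libraries, which allows at most 0.126 CPM in any library. The summed preadipocyte markers lay at 4456 to 4613, 5700 to 5947 and 5339 to 5656 CPM in vehicle libraries at 4, 8 and 24 h and at 3513 to 3583, 3605 to 3807 and 2045 to 2097 CPM in FGF6 libraries. Most of this sum was Col1a1 and Itgb1. At 24 h Col1a1 averaged 3107 CPM with vehicle and 443 CPM with FGF6, and Itgb1 988 and 1234 CPM. The summed endothelial markers lay between 11.1 and 17.2 CPM in every library, Erg and Sox17 among them had 0 counts throughout, and Pecam1 had at most 7 counts. The summed macrophage markers lay between 8.08 and 20.9 CPM, with C1qa and C1qb at 0 counts throughout.

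FGF6 changed most of the angiogenic factors, in both directions. FGF6 raised 5 of the 10 and lowered 3 at 4 h, raised 4 and lowered 5 at 8 h, and raised 3 and lowered 6 at 24 h. These counts are to be read against a broad response of the transcriptome. At 4 h 62.8% of all tested genes were called (28.6% higher and 34.2% lower), at 8 h 70.8% (32.4% higher and 38.4% lower) and at 24 h 73.8% (35.9% higher and 37.9% lower). With a change of at least 2-fold also required, 3 factors were called at 4 h, 5 at 8 h and 7 at 24 h, beside 11.3%, 18.3% and 22.8% of all tested genes. The median log2 fold change of the 10 factors was 0.33 at 4 h, 0.10 at 8 h and -0.72 at 24 h, and that of all tested genes was -0.05, -0.05 and -0.02. RNA was measured in bulk, so fewer cells of a type and less RNA per cell cannot be told apart.

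**Figure D1:**
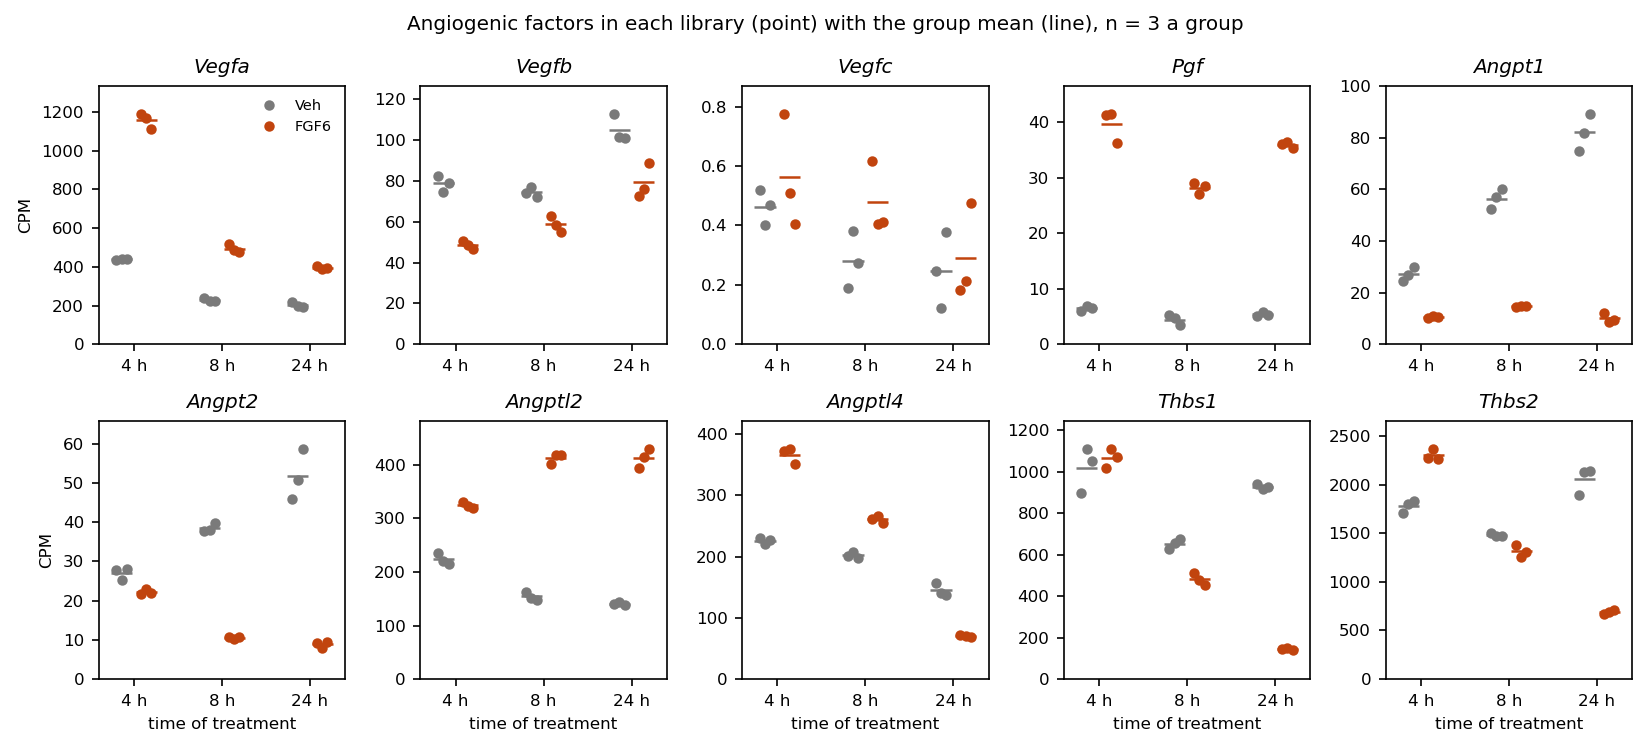
CPM (y axis, linear from 0, a separate scale for each gene) of the 10 angiogenic factors at 4, 8 and 24 h, with grey points for vehicle libraries, red points for FGF6 libraries and a line at each group mean of 3. Pgf stays between 3.39 and 6.86 CPM with vehicle and between 27.1 and 41.5 CPM with FGF6, Angpt1 and Angpt2 climb with time in the vehicle libraries, and Thbs1 separates most at 24 h.

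**Figure D2:**
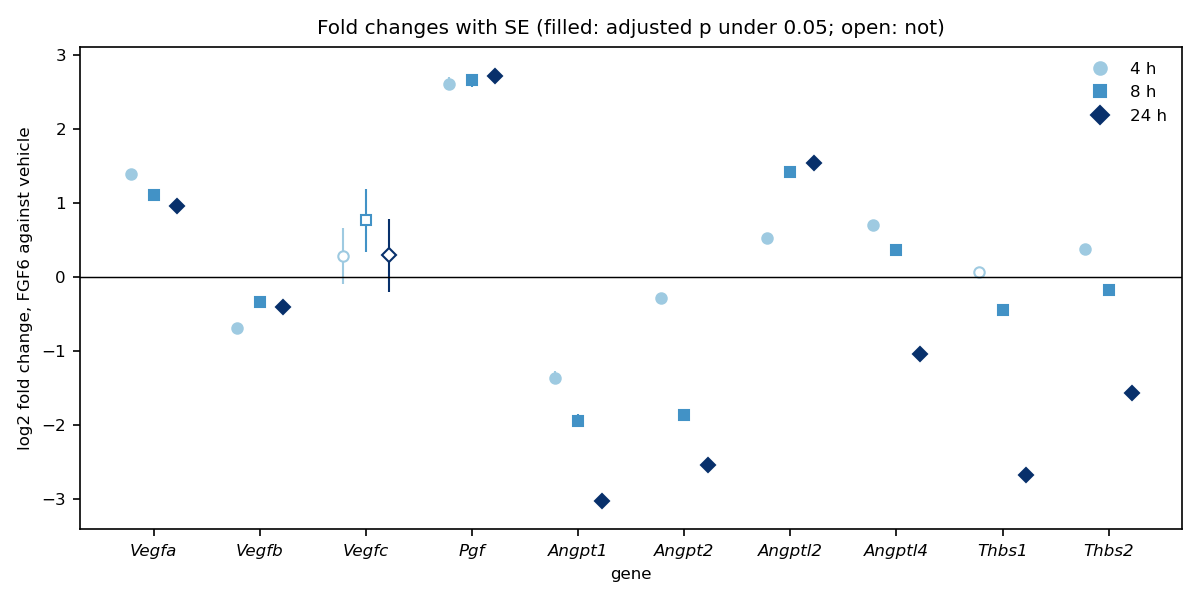
Log2 fold change of FGF6 against vehicle (y axis) with its SE for each factor (x axis) at 4 h (circles), 8 h (squares) and 24 h (diamonds), filled where the adjusted p was under 0.05. Vegfa, Pgf and Angptl2 lie above 0 at every time, Vegfb, Angpt1 and Angpt2 below 0 at every time, and Angptl4 and Thbs2 cross from above to below.

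Vegfa, the main growth and permeability factor for endothelial cells, was more than doubled by FGF6 at 4 and 8 h and stayed higher at 24 h. It lies on the minus strand of chromosome 17 of GRCm38, from 46016993 to 46032369. At 4 h it measured 434.5, 442 and 441 CPM in the 3 vehicle libraries and 1192, 1171 and 1114 CPM in the 3 FGF6 libraries. At 8 h the vehicle libraries held 240.0, 225 and 224 CPM and the FGF6 libraries 518, 487 and 479 CPM. At 24 h the values were 217, 197 and 195 CPM against 404, 387 and 393 CPM. The groups did not overlap at any time, and the vehicle level itself was highest at 4 h. Vegfa was 2.64-fold higher at 4 h (log2 fold change 1.40 ± 0.04 (SE, n = 3 a group), edgeR adjusted p = 5.52e-20), 2.15-fold at 8 h (1.11 ± 0.04) and 1.94-fold at 24 h (0.96 ± 0.04, edgeR adjusted p = 5.17e-17). Of all tested genes, 6.31% moved further than Vegfa at 4 h and 24.8% did at 24 h.

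Pgf, placental growth factor, a ligand of Flt1, had the largest increase of the 10 at every time. It is encoded on the minus strand of chromosome 12, from 85166635 to 85177790. The 3 vehicle libraries held 6.03, 6.86 and 6.54 CPM at 4 h, where the FGF6 libraries held 41.4, 41.5 and 36.2 CPM. At 8 h the values were 5.27, 4.67 and 3.39 CPM with vehicle and 29.0, 27.1 and 28.5 CPM with FGF6, and at 24 h they were 5.04, 5.85 and 5.34 CPM and 36.0, 36.4 and 35.3 CPM. Every FGF6 library thus stood far above every vehicle library. The increase was 6.13-fold at 4 h (log2 fold change 2.62 ± 0.09, edgeR adjusted p = 7.62e-19), 6.31-fold at 8 h (2.66 ± 0.09) and 6.61-fold at 24 h (2.72 ± 0.09), and neither step between times passed the test (0.04 ± 0.13 and 0.07 ± 0.14 on the log2 scale). The counts behind the vehicle values ran from 99 to 222 a library.

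Vegfb, a second Flt1 ligand linked to fatty acid uptake, moved the other way. It lies on the minus strand of chromosome 19, from 6982473 to 6987651. Vehicle libraries held 74.6 to 82.6 CPM at 4 h, 72.1 to 77.2 CPM at 8 h and 101 to 113 CPM at 24 h. The FGF6 libraries lay below them each time, at 46.8 to 50.7, 54.9 to 63.0 and 72.8 to 88.8 CPM. Vegfb was 1.61-fold lower at 4 h (log2 fold change -0.69 ± 0.06, edgeR adjusted p = 6.92e-10), 1.27-fold lower at 8 h (-0.34 ± 0.06) and 1.33-fold lower at 24 h (-0.41 ± 0.06). Vegfc, the ligand of Flt4 that drives lymphatic growth, was near the limit of detection, with 4 to 21 counts a library. Its log2 fold changes of 0.29 ± 0.38, 0.77 ± 0.42 and 0.29 ± 0.49 at 4, 8 and 24 h did not pass the test (edgeR adjusted p = 0.529, 0.11 and 0.603). At 8 h alone its 3 FGF6 libraries, with 0.403 to 0.619 CPM, all lay above the 3 vehicle libraries, with 0.189 to 0.381 CPM. The unscaled counts overlapped, at 10 to 19 with FGF6 and 6 to 12 with vehicle, so this separation rests on the scaling. The sign at 24 h rested on single libraries: it was -0.04 without Veh.24h replicate 2 and -0.21 without FGF6.24h replicate 3.

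The upstream sequences of Vegfa and Vegfb, which differed in direction at every time, and of Thbs2, the most abundant of the factors, are shown as the 250 bases before the start given by RefSeq (GRCm38.p6, 5′ to 3′ along the gene), with capitals at each GC box (GGGCGG on either strand).
Vegfa (chr17:46032378-46032627, minus strand): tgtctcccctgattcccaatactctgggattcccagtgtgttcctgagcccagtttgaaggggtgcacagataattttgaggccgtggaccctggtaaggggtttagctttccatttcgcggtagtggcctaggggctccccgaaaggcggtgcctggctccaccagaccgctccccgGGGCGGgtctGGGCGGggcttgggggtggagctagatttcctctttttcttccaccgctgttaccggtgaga
Vegfb (chr19:6987652-6987901, minus strand): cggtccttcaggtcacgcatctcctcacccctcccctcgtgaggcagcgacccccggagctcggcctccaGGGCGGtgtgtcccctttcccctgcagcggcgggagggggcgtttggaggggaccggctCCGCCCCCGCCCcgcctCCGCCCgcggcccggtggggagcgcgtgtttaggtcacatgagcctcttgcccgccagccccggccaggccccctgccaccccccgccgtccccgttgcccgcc
Thbs2 (chr17:14694263-14694512, minus strand): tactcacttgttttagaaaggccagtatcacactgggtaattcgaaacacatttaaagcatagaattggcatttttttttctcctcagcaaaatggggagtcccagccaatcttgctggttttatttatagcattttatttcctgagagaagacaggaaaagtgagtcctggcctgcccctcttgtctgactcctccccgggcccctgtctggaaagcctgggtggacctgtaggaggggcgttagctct
RefSeq windows were at hand for 6 of the 10 factors, Vegfa, Vegfb, Vegfc, Pgf, Angptl2 and Thbs2. The windows printed hold no annotated exon, whereas both Pgf windows lie entirely in annotated exons and are not printed. Vegfa has a second window (chr17:46025164-46025413) at an internal start, of which 218 of the 250 bases lie in annotated exons, and it is not printed either. The Vegfa window printed had 2 GC boxes, beginning 72 and 62 bases before the start, and 59.2% G or C, and the Vegfb window had 4 GC boxes and 76.4% G or C. The Thbs2 window had no GC box and 46.8% G or C, against a median of 52.4% over all 32851 windows. A GC box was present in 32.7% of all windows. The hypoxia response core ACGTG (16.6% of all windows), the AP-1 site TGACTCA (4.46%), the cyclic AMP response element TGACGTCA (1.55%) and the ETS site CCGGAAGT (2.88%), searched on both strands, were not among the letters of these 3 windows. The second Vegfa window had 1 match to ACGTG, beginning 211 bases before its start, and 1 GC box. A match here is a description of the letters and not a site of binding.

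The make-up of the VEGF ligands shifted within each library. Per kb of exon, Vegfa made up 65.4 to 67.8% of the summed 4 VEGF ligands in vehicle libraries at 4 h and 85.8 to 86.2% in FGF6 libraries. By 24 h it was 41.2 to 41.3% with vehicle, where Vegfb held 56.9 to 57.2%, and 57.6 to 62.0% with FGF6, where Vegfb held 29.8 to 34.7%. Of these 4 ligands, Vegfb was the highest per kb in vehicle cells at 24 h (65.5 against 47.4 CPM per kb for Vegfa) and Vegfa in FGF6 cells (92.1 against 49.4 CPM per kb). The order in vehicle cells rests on division by all annotated exonic bases, 4285 for Vegfa and 1605 for Vegfb. Before that division Vegfa stood at 203 CPM and Vegfb at 105 CPM. The shares leave out the further VEGF ligand Vegfd, which at 24 h measured 58.6 CPM in vehicle cells and 8.88 CPM in FGF6 cells. Pgf made up 1.19 to 1.81% of the total in the vehicle libraries of all times and 4.13 to 4.50, 5.85 to 6.30 and 7.64 to 8.34% in FGF6 libraries at 4, 8 and 24 h.

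**Figure D3:**
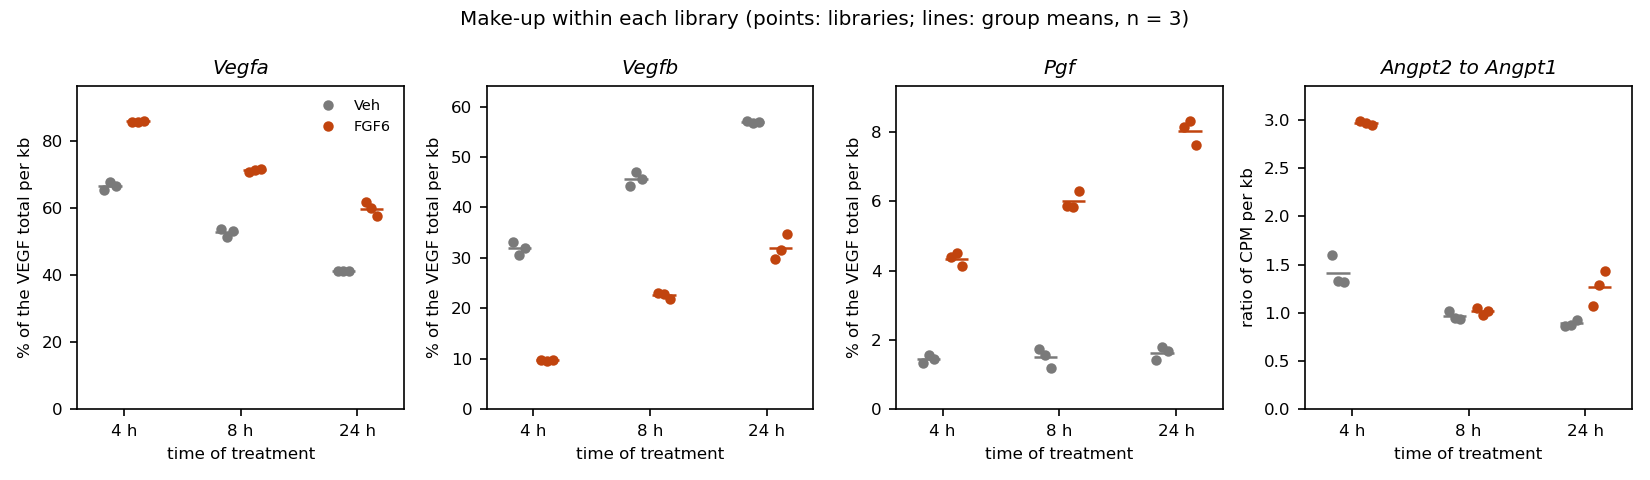
The share of Vegfa, Vegfb and Pgf in the summed 4 VEGF ligands (%, CPM per kb of exon) and the ratio of Angpt2 to Angpt1 (rightmost panel, per kb), for each library at 4, 8 and 24 h, with grey for vehicle, red for FGF6 and a line at each group mean. Vegfa falls with time in both treatments but is higher with FGF6, the mean Pgf share goes from 1.45 to 1.63% with vehicle and from 4.34 to 8.04% with FGF6, and the angiopoietin ratio stands apart most at 4 h, near 2.97 with FGF6 and 1.41 with vehicle.

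Both angiopoietins were lower with FGF6, and the gap widened with time. Angpt1 lies on the minus strand of chromosome 15, from 42424723 to 42676977. In vehicle libraries it measured 24.6, 27.0 and 30.0 CPM at 4 h, 52.3, 56.9 and 60.3 CPM at 8 h and 74.9, 81.9 and 89.3 CPM at 24 h. In FGF6 libraries it measured 10.3, 10.9 and 10.5 CPM, then 14.6, 14.7 and 14.9 CPM, then 12.1, 8.79 and 9.40 CPM. The level rose 3.02-fold from 4 to 24 h with vehicle (edgeR adjusted p = 2.84e-15), while with FGF6 the change over the same time was -0.07 ± 0.11 on the log2 scale (edgeR adjusted p = 0.568). FGF6 cells held 2.56-fold less Angpt1 RNA than vehicle cells at 4 h (log2 fold change -1.36 ± 0.09, edgeR adjusted p = 2.52e-12), 3.83-fold less at 8 h (-1.94 ± 0.08) and 8.13-fold less at 24 h (-3.02 ± 0.09, edgeR adjusted p = 1.97e-20). This was the largest fall among the 10 factors, and 5.17% of all tested genes moved further at 24 h. Of its 5205 exonic bases, 737 are shared with Gm17473 on the opposite strand, and whether reads were counted by strand is not stated.

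Angpt2 (chromosome 8, minus strand, 18690263 to 18741562) started closer together and separated later. At 4 h the 3 vehicle libraries held 27.9, 25.4 and 28.0 CPM and the FGF6 libraries 21.8, 23.0 and 22.0 CPM. At 8 h the values were 37.7, 38.0 and 39.9 CPM against 10.8, 10.2 and 10.8 CPM, and at 24 h 46.1, 50.8 and 58.8 CPM against 9.12, 8.00 and 9.58 CPM. The groups did not overlap at any time. The log2 fold change was -0.28 ± 0.07 at 4 h (edgeR adjusted p = 0.00153), -1.86 ± 0.08 at 8 h (3.64-fold lower) and -2.54 ± 0.08 at 24 h (5.82-fold lower, edgeR adjusted p = 9.01e-20). The vehicle level rose 1.91-fold from 4 to 24 h and the FGF6 level fell 2.50-fold (edgeR adjusted p = 4.4e-13).

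Because Angpt1 and Angpt2 share the receptor Tek, their ratio was compared within each library, where no scaling between libraries enters. Per kb of exon, Angpt2 was 1.32 to 1.60 times Angpt1 in vehicle libraries at 4 h and 2.95 to 2.99 times in FGF6 libraries. The ratios were 0.933 to 1.02 and 0.973 to 1.05 at 8 h, and 0.867 to 0.929 and 1.06 to 1.44 at 24 h. The difference in log2 ratio between FGF6 and vehicle was 1.08 at 4 h, 0.07 at 8 h and 0.49 at 24 h. In the two-sided exact permutation test the p-values were 0.1, 0.2 and 0.1, where 0.1 is the smallest that 3 against 3 libraries allow. The groups overlapped at 8 h only. The angiopoietin balance was furthest apart at 4 h, when the log2 fold change was -1.36 for Angpt1 and -0.28 for Angpt2.

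The angiopoietin-like proteins split. Angptl2, a secreted protein of fat and other tissues known for roles in vessel growth and inflammation, was higher with FGF6 at every time, by a margin that grew to 8 h. It lies on the plus strand of chromosome 2, from 33216069 to 33247717. The vehicle libraries held 235, 221 and 216 CPM at 4 h, 163, 152 and 148 CPM at 8 h and 140, 144 and 139 CPM at 24 h. The FGF6 libraries held 331, 322.5 and 320 CPM, then 401, 418 and 417.5 CPM, then 394, 414 and 430.5 CPM. Vehicle values fell 1.59-fold from 4 to 24 h (edgeR adjusted p = 3.78e-13) and FGF6 values rose 1.27-fold (edgeR adjusted p = 2e-08). The increase with FGF6 was 1.45-fold at 4 h (log2 fold change 0.53 ± 0.04, edgeR adjusted p = 1.19e-11), 2.67-fold at 8 h (1.42 ± 0.04) and 2.92-fold at 24 h (1.55 ± 0.04, edgeR adjusted p = 2.92e-21).

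Angptl4, an inhibitor of lipoprotein lipase that is known to be induced by fasting, hypoxia and PPAR receptors, changed direction. It is encoded on the minus strand of chromosome 17, from 33773750 to 33781830. At 4 h the vehicle libraries held 231, 220 and 227 CPM and the FGF6 libraries 372, 376.5 and 352 CPM. At 8 h the values were 201, 207 and 198.5 CPM against 262, 267 and 255 CPM. At 24 h they were 158, 140.1 and 137 CPM against 71.8, 70.4 and 69.5 CPM. The groups were apart at each time, with FGF6 above vehicle at 4 and 8 h and below it at 24 h. Angptl4 was 1.62-fold higher at 4 h (log2 fold change 0.70 ± 0.04, edgeR adjusted p = 9.78e-14), 1.29-fold higher at 8 h (0.37 ± 0.04) and 2.05-fold lower at 24 h (-1.04 ± 0.04, edgeR adjusted p = 3.85e-17). Within FGF6 cells it fell 5.19-fold from 4 to 24 h, beside 1.56-fold in vehicle cells.

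Both thrombospondins were lower with FGF6 at 8 and 24 h, by the wider margin at 24 h. Thbs2 had the highest level per kb of the 10 in all 6 groups, and Thbs1 came next with vehicle but lay below Vegfa with FGF6 at each time. Thbs1, a matrix-associated inhibitor of angiogenesis that also activates TGF-beta, lies on the plus strand of chromosome 2, from 118111876 to 118127133. The opposite-strand gene Gm29233 covers 208 of the 6073 exonic bases of Thbs1. At 4 h it measured 897, 1112 and 1051 CPM with vehicle and 1019, 1112 and 1069 CPM with FGF6, and the groups overlapped. The log2 fold change at 4 h was 0.06 ± 0.05 (edgeR adjusted p = 0.314), -0.04 with library size alone as the scaling and -0.02 without Veh.4h replicate 1, and without Veh.4h replicate 2 it was 0.13 and passed the test (edgeR adjusted p = 0.0421). At 8 h the values were 626, 656 and 678 CPM against 513, 478 and 452 CPM, and at 24 h 941, 915 and 927 CPM against 145, 149 and 140.3 CPM. Thbs1 was 1.36-fold lower at 8 h (log2 fold change -0.44 ± 0.05, edgeR adjusted p = 7.3e-08) and at 24 h stood at 0.156 of the vehicle level (log2 fold change -2.68 ± 0.06, edgeR adjusted p = 5.23e-23). FGF6 cells lost 7.36-fold of their Thbs1 RNA between 4 and 24 h, and vehicle cells 1.10-fold, with overlapping groups in the latter.

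Thbs2, a related inhibitor of angiogenesis made by mesenchymal cells, passed from higher to lower. It lies on the minus strand of chromosome 17, from 14665500 to 14694235. The vehicle libraries held 1706, 1797 and 1832 CPM at 4 h, 1503, 1474 and 1473 CPM at 8 h and 1895, 2131 and 2138 CPM at 24 h. The FGF6 libraries held 2273, 2373 and 2269 CPM, then 1381, 1257 and 1306 CPM, then 667, 690.4 and 715 CPM. At each time the groups were apart, closest at 8 h. Thbs2 was 1.30-fold higher at 4 h (log2 fold change 0.37 ± 0.04, edgeR adjusted p = 7.77e-09), 1.13-fold lower at 8 h (-0.17 ± 0.04, edgeR adjusted p = 0.000362) and 2.97-fold lower at 24 h (-1.57 ± 0.04, edgeR adjusted p = 1.79e-21). Thbs1 fell further than Thbs2, and the ratio of Thbs1 to Thbs2 per kb went from 0.495 to 0.573 in vehicle libraries at 24 h to 0.226 to 0.251 in FGF6 libraries.

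Ordered by CPM per kb of exon in vehicle cells at 24 h, Thbs2 came first at 293, followed by Thbs1 at 153, Vegfb at 65.5, Vegfa at 47.4, Angptl4 at 40.9, Angptl2 at 22.4, Angpt1 at 15.8, Angpt2 at 14.1, Pgf at 1.86 and Vegfc at 0.101. In FGF6 cells at 24 h Thbs2 still led at 98.7 CPM per kb, but Vegfa came next at 92.1, then Angptl2 at 65.7, Vegfb at 49.4, Thbs1 at 23.9, Angptl4 at 19.9, Pgf at 12.4, Angpt2 at 2.41, Angpt1 at 1.94 and Vegfc at 0.119. The only neighbours in this order to overlap in the vehicle libraries were Angpt1 and Angpt2, at 14.4 to 17.2 and 12.5 to 15.9 CPM per kb. In the FGF6 libraries no neighbours overlapped except Angpt2 and Angpt1, at 2.17 to 2.60 and 1.69 to 2.32 CPM per kb.

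The effect of FGF6 differed between times for most factors. From 4 to 8 h the effect changed for 8 of the 10, against 30.6% of all tested genes, with the log2 difference from FGF6 to vehicle moving up for Angptl2 (0.88 ± 0.06) and Vegfb (0.35 ± 0.09) and down for the other 6. From 8 to 24 h it changed for 6, all downwards, against 45.1% of all tested genes. The largest of these shifts was -2.24 ± 0.08 for Thbs1, followed by -1.41 ± 0.06 for Angptl4 and -1.40 ± 0.06 for Thbs2. None of the 10 moved upwards in that step by edgeR, limma or DESeq2 at an adjusted p under 0.05, and 1 did in edgeR and in limma at an unadjusted p under 0.05. With library size alone or upper-quartile factors as the scaling, 1 was called upwards and 5 downwards.

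Time in culture changed the factors as well. In vehicle cells 8 of the 10 differed between 24 and 4 h, against 60.8% of all tested genes, with 4 higher (Vegfb, Angpt1, Angpt2 and Thbs2) and 4 lower (Vegfa, Angptl2, Angptl4 and Thbs1). Under FGF6 8 of the 10 differed over the same span, against 71.2% of all tested genes, with Vegfb and Angptl2 higher and Vegfa, Vegfc, Angpt2, Angptl4, Thbs1 and Thbs2 lower. The call of Vegfc was marginal (edgeR adjusted p = 0.0472, with overlapping groups), and with library size alone or upper-quartile factors 5 factors were lower. Vegfa fell 2.16-fold with vehicle and 2.94-fold with FGF6.

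The endothelial receptors of these ligands were scarce in the cells themselves. At 24 h the neuropilins, Cd47, Cd36 and Lrp1 were lower with FGF6, and the integrins and syndecans listed were higher. The VEGF receptor Flt1 had at most 125 counts in a library and rose at 4 h, from 1.21 to 3.46 CPM (log2 fold change 1.51 ± 0.25, edgeR adjusted p = 8.39e-06), and Kdr had at most 57 counts and rose from 0.365 to 1.61 CPM at 8 h (2.11 ± 0.35, edgeR adjusted p = 7.19e-06). Flt4 had at most 22 counts and was higher at 8 h (1.98 ± 0.46, edgeR adjusted p = 0.00046). The angiopoietin receptor Tek and its relative Tie1 had at most 9 and 2 counts and were not tested. Among the co-receptors, Nrp1 passed from 0.53 at 4 h to -1.80 at 24 h on the log2 scale (edgeR adjusted p = 7.37e-24 at 24 h), and Nrp2 was -0.90 at 24 h (edgeR adjusted p = 2.56e-19). Of the thrombospondin receptors, Cd47 was -1.10 at 24 h (edgeR adjusted p = 5.98e-18). Cd36 had at most 36 counts in any library and was -3.59 at 24 h (edgeR adjusted p = 8.95e-06). Over the 16 receptors and integrins listed, of which 14 were tested, 9 were higher and 2 lower at 4 h, 9 and 4 at 8 h, and 6 and 5 at 24 h, with a median log2 fold change of 0.27. Of all tested genes 28.6% and 34.2%, 32.4% and 38.4%, and 35.9% and 37.9% were higher and lower at the 3 times. The integrin subunit Itgb3 was the largest increase at 24 h (log2 fold change 2.04, edgeR adjusted p = 3.1e-18), and Itga5 rose from 246 to 492 CPM (1.00, edgeR adjusted p = 2.9e-18).

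Other vascular ligands went both ways, as did all tested genes. Of 25 listed, 20 were tested, and 10 were higher and 6 lower at 4 h, 9 and 8 at 8 h, and 8 and 7 at 24 h. The shares of all tested genes higher and lower were 28.6% and 34.2%, 32.4% and 38.4%, and 35.9% and 37.9%. The chemokine Cxcl12, which recruits vascular progenitors, fell from 1636 CPM with vehicle to 70.3 CPM with FGF6 at 24 h (log2 fold change -4.54, edgeR adjusted p = 6.71e-27), and the third angiopoietin Angpt4 fell from 6.21 to 0.290 CPM (-4.41, edgeR adjusted p = 4.71e-15). A list of 16 further genes held inhibitors of angiogenesis beside Thbs1 and Thbs2. It included Thbs3, Thbs4, Comp and Vash2, which are relatives of inhibitors, so its counts are not of inhibitors alone. Of the 16, 13 were tested, with 5 higher and 5 lower at 4 h, 3 and 9 at 8 h, and 0 and 9 at 24 h. Vash2 was among those higher at 4 and 8 h (log2 fold change 0.62 and 0.37), and Thbs3 and Comp among those lower at 24 h. The count of 0 was the same with limma and with DESeq2, and also at an unadjusted p under 0.05 in edgeR. The thrombospondin family member Comp fell from 4.53 to 0.316 CPM (-3.83, edgeR adjusted p = 3.93e-12) and the chemokine Cxcl10 from 282 to 33.3 CPM (-3.08, edgeR adjusted p = 1.65e-11). The median log2 fold change of the 13 was -1.02 at 24 h, beside -0.02 over all tested genes.

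Genes known to respond to the same signals as Vegfa and Angptl4 were counted beside them. Vegfa is a classical target of hypoxia-inducible factors. Of 20 other hypoxia targets 7 were higher and 8 lower at 4 h, 6 and 12 at 8 h, and 16 and 3 at 24 h, with median log2 fold changes of -0.02, -0.40 and 0.52. Among all tested genes 28.6% and 34.2%, 32.4% and 38.4%, and 35.9% and 37.9% were higher and lower at these times. Vegfa was higher at all 3 times and its margin was largest at 4 h. With library size alone the list had 5 higher and 11 lower at 4 h. Under that scaling 3242 of all tested genes were higher and 6495 lower. Whether hypoxia signalling acted on Vegfa was not tested. At 24 h the prolyl hydroxylase Egln3 was the largest increase of the list (log2 fold change 2.47, edgeR adjusted p = 1.4e-23) and adrenomedullin, Adm, itself a vascular ligand, the largest fall (-3.19, edgeR adjusted p = 1.11e-23). Among 10 regulators of the hypoxia response, 3 were higher and 4 lower at 24 h, with Epas1, the subunit HIF-2 alpha, at -1.79 (edgeR adjusted p = 1.59e-12).

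Angptl4 is a known target of the PPAR receptors. Of 15 other PPAR targets 1 was higher and 11 lower at 4 h, 1 and 14 at 8 h, and 1 and 14 at 24 h, with median log2 fold changes of -0.59, -0.88 and -1.26. Among all tested genes 34.2%, 38.4% and 37.9% were lower at these times, and 28.6%, 32.4% and 35.9% higher. Lipoprotein lipase, Lpl, the enzyme that Angptl4 inhibits, fell at 24 h from 1421 to 82.7 CPM (-4.10, edgeR adjusted p = 5.35e-28), and the lipid droplet gene Cidec from 4.32 to 0.168 CPM (-4.64, edgeR adjusted p = 6.84e-12). At 4 and 8 h Angptl4 was higher while most of the PPAR targets listed were lower, and whether PPAR signalling acted on Angptl4 was not tested. Thbs1 is among the known targets of YAP and TGF-beta signalling. Of 16 other targets 10 were higher and 4 lower at 4 h, 11 and 4 at 8 h, and 9 and 6 at 24 h, when Thbs1 was lower, with the matrix protein Postn at -4.80 (edgeR adjusted p = 2.22e-25) and Amotl2 at -2.80 (edgeR adjusted p = 4.71e-25). Whether YAP or TGF-beta signalling acted on Thbs1 was not tested.

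**Figure D4:**
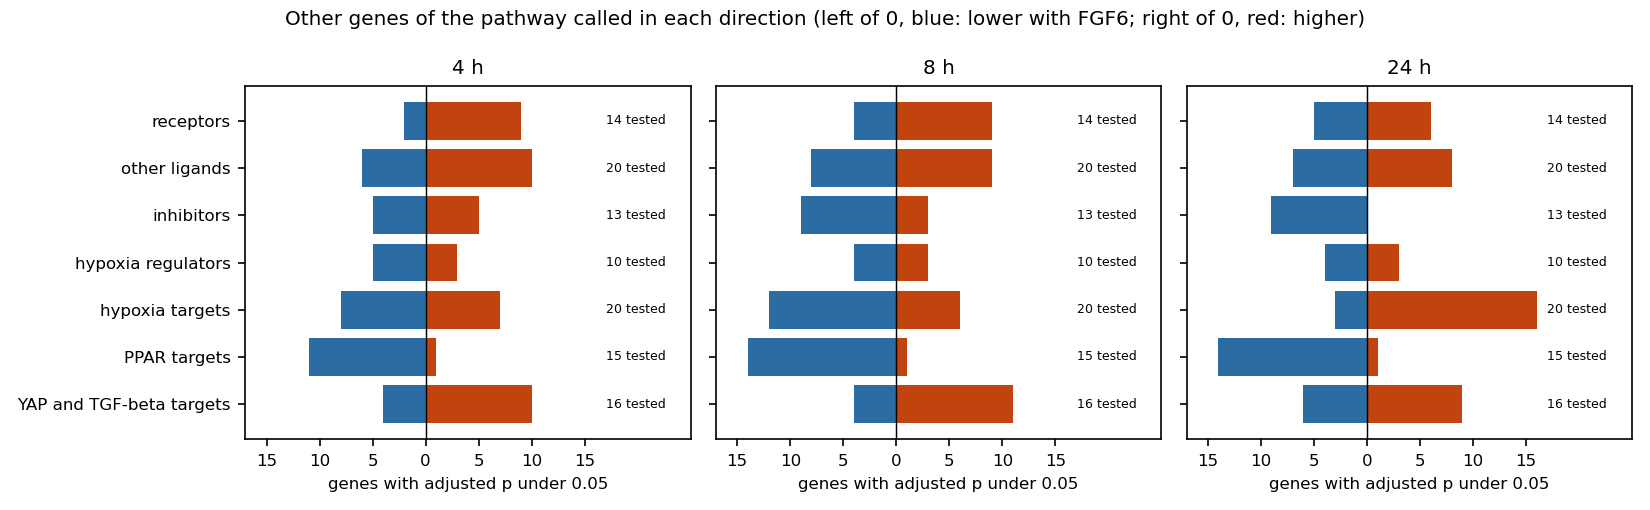
Number of genes called at an adjusted p under 0.05 (x axis, lower with FGF6 to the left in blue, higher to the right in red) in 7 lists of related genes (y axis) at 4, 8 and 24 h, with the number tested at the right of each bar. The inhibitors list, which includes relatives of inhibitors, has 9 lower and 0 higher at 24 h. Hypoxia targets turn from mostly lower at 8 h to 16 higher at 24 h, and PPAR targets are mostly lower throughout. Of all tested genes 35.9% were higher and 37.9% lower at 24 h.

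Some markers of vessel-associated and fat cells changed as well, not all in the same direction, and their part in these results was not tested. At 24 h 35.9% of all tested genes were higher and 37.9% lower, beside which the marker counts are to be read. The 10 mural markers, of which 7 were tested and Abcc9 had 0 counts throughout, summed to 1013 to 1048, 1062 to 1110 and 736 to 739 CPM in vehicle libraries at 4, 8 and 24 h and to 641 to 683, 418 to 458 and 111 to 117 CPM in FGF6 libraries. At 24 h 4 of the 7 were lower and 1, Rgs5, was higher (log2 fold change 0.84, edgeR adjusted p = 0.00751). Most of the sum was Acta2, which went from 609.9 CPM in vehicle cells to 77.4 CPM in FGF6 cells at 24 h (-2.98, edgeR adjusted p = 6.44e-27), and Notch3 was at -4.42 (edgeR adjusted p = 2e-26). The 10 adipocyte markers, of which 6 were tested and Lep had 0 counts throughout, summed to 103 to 108, 96.8 to 100.1 and 156 to 178.5 CPM with vehicle and to 90.9 to 99.3, 69.3 to 73.1 and 63.7 to 70.2 CPM with FGF6, nearly all of it Fabp4. At 24 h 5 of the 6 were lower. Of the 9 preadipocyte markers tested, 7 were lower at 24 h, among them Col1a1 (log2 fold change -2.81) and Ly6a (-2.91), and 2 were higher, Cd34 (1.38) and Itgb1 (0.32). Endothelial markers stayed within 13.5 to 13.9 CPM with vehicle and 15.7 to 16.6 CPM with FGF6 at 24 h, where 1 of the 6 tested, Cdh5, rose to 3.59 CPM from 0.0582 CPM, and 1, Plvap, was lower (log2 fold change -0.69). Macrophage markers lay at 8.08 to 9.53 CPM with vehicle and 15.5 to 16.5 CPM with FGF6 at 24 h, and the higher sum was that of Mrc1, at 0.755 CPM in vehicle cells and 12.3 CPM in FGF6 cells. The other 3 tested were lower at 24 h, Csf1r at -1.77, Lyz2 at -4.52 and Cd68 at -0.85 on the log2 scale.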

How the data were processed

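The 18 RNA-seq libraries of immortalized brown preadipocytes were assigned by their labels to 6 groups of 3, given by treatment (vehicle or FGF6) and time. The authors aligned the reads with STAR to GRCm38.p4, assigned them to genes with Subread featureCounts and deposited raw counts. Versions and the strand setting are not given in the sources used here. Identifiers were matched to GENCODE M21 (98.52% found).

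Counts were analysed with edgeR 4.0.16 in R 4.3.3: filterByExpr over the 6 groups kept 15071 of 48023 genes, TMM factors scaled the libraries, and the quasi-likelihood F test was run in 1 fit of 6 group means with Benjamini-Hochberg adjustment over all genes kept, called at an FDR of 0.05. SEs are the log2 fold change divided by the root of F. The study itself used limma with voom, run here as an alternative (limma 3.58.1), and called genes at an FDR of 0.25. DESeq2 1.42.0, other scalings and filters, the replicate number as a block, the compared libraries alone and leaving out each library were further alternatives, and the 2-fold requirement was added after the data were seen. Total counts per library ran from 24327816 to 33471980, so that 3 counts, the floor, stood for 0.0905 to 0.126 CPM, which covers counting error only. The script was tested on simulated data with few genes changed, which does not check the scaling under a response as broad as this. All 10 factors were named. From each further list the text names the 2 genes with the largest change at 24 h among those called with a mean of at least 1 CPM, and the direct receptors of the factors. Itga5, Itgb1, Lrp1, Cdh5, Pecam1, Rgs5, Cd34, Lyz2, Cd68, Thbs3, Thbs4 and Vash2 were named after their values were seen. So were the markers at 0 counts, Vegfd and, in the closing section, Fgf2, Hgf and Ptn. The members and lists were chosen with earlier results of these data known.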

Additional observations from a re-analysis of the deposited data

Results flagged for a closer look

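The effect of FGF6, as the log2 fold change against vehicle at the same time, differed between times for most of the factors (interaction contrasts in edgeR, adjusted over all tested genes). Between 4 and 8 h it moved by -0.29 ± 0.06 (SE) for Vegfa, 0.35 ± 0.09 for Vegfb, -0.58 ± 0.13 for Angpt1, -1.58 ± 0.11 for Angpt2, 0.88 ± 0.06 for Angptl2, -0.33 ± 0.06 for Angptl4, -0.51 ± 0.08 for Thbs1 and -0.55 ± 0.06 for Thbs2. Between 8 and 24 h it moved by -0.15 ± 0.06 for Vegfa, -1.08 ± 0.12 for Angpt1, -0.68 ± 0.12 for Angpt2, -1.41 ± 0.06 for Angptl4, -2.24 ± 0.08 for Thbs1 and -1.40 ± 0.06 for Thbs2. The weakest of these was Vegfa between 8 and 24 h (edgeR adjusted p = 0.0344). For Angptl4 and Thbs2 the effect passed from higher to lower. The vehicle levels moved over the same time, and the shift in effect includes both. Angpt1 rose 3.02-fold with vehicle from 4 to 24 h and did not pass the test with FGF6 (edgeR adjusted p = 0.568), and Thbs1 fell 7.36-fold with FGF6 and 1.10-fold with vehicle.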

How the results depend on the processing

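Across 9 other processing settings and the fits that left out a library, 440 recomputed log2 fold changes of the 10 factors against vehicle kept their direction and side of the threshold, 4 changed sign and 2 came past the threshold. The log2 fold change of Thbs1 at 4 h was -0.0367 with library size alone, and it ranged from -0.0201 (without Veh.4h replicate 1) to 0.13 (without Veh.4h replicate 2, edgeR adjusted p = 0.0421) when libraries were left out. That of Vegfc at 24 h ranged from -0.21 (without FGF6.24h replicate 3) to 0.73 and was -0.04 without Veh.24h replicate 2, and at 8 h it passed the study's FDR of 0.25 (0.77, edgeR adjusted p = 0.11). The causes were not tested. With at least 10 counts in every library Vegfc could not be tested. Requiring 2-fold as well left 3 of 8 calls at 4 h and 5 of 9 at 8 h. With library size alone the median of all genes at 4 h moved from -0.05 to -0.15, and 3242 genes were higher and 6495 lower in place of 4308 and 5152.

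Same-numbered libraries did not deviate together (correlations from -0.08 to 0.08, beside -0.14 to 0.11 for libraries of different number). With 3 libraries a group this cannot decide whether same-numbered libraries were set up together. With the replicate block the factors called were 8, 9 and 9 at 4, 8 and 24 h, as without it, 9 in place of 8 for vehicle at 24 against 4 h and 7 in place of 8 for FGF6. Over all 9 settings these last counts ran from 8 to 10 and from 7 to 9, and from 7 to 9 in both when a library was left out. The count for the effect at 24 against 8 h ran from 5 to 7 when a library was left out. In this balanced design the block cannot move the differences in log2 ratio of Angpt2 to Angpt1 (1.08, 0.07 and 0.49). Leaving out a library gave 1.03 to 1.17, 0.05 to 0.11 and 0.39 to 0.61. With 4 to 21 counts a library, the depth limits what can be said of Vegfc.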

Other observations

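The patterns of the factors over the 18 libraries fell into groups. On log2 CPM, Thbs1 and Thbs2 varied together (Pearson r = 0.98), Angpt1 and Angpt2 did (0.87), and Pgf and Angptl2 did (0.93), while Angptl2 ran opposite to Angpt1 (-0.95) and Vegfa opposite to Vegfb (-0.85). These correlations describe libraries that share treatment and time and carry no test. Among 12298 genes with a mean of at least 1 CPM, the closest pattern to Vegfa was that of Smurf1 (r = 0.99), to Pgf that of Trip10 (0.996), to Angpt1 that of Slc38a4 (0.99), to Angpt2 that of Itpkb (0.99), to Angptl2 that of Wdr36 (0.99), to Angptl4 that of Pde4a (0.99), to Thbs1 that of Irf4 (0.99), to Thbs2 that of Zc3h12a (0.99) and to Vegfb that of Pef1 (0.96).

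The remaining VEGF ligand and 3 further growth factors, picked after their values were seen, are given as values. Vegfd, the lymphatic ligand related to Vegfc, fell from 58.6 CPM with vehicle to 8.88 CPM with FGF6 at 24 h (log2 fold change -2.72, edgeR adjusted p = 5.52e-22) and was already lower at 4 h (-1.40). Fgf2, a growth factor for endothelial cells, rose from 4.45 to 85.0 CPM at 4 h (4.26, edgeR adjusted p = 4.9e-24) and was still 42.4 CPM against 2.51 CPM at 24 h. Hgf, hepatocyte growth factor, rose most at 24 h, from 17.2 to 84.1 CPM (2.30, edgeR adjusted p = 8.09e-20), and Ptn, pleiotrophin, fell from 4463 to 321 CPM (-3.80, edgeR adjusted p = 2.65e-28).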
